A study of Mus musculus with 6 samples.

Results

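In N2A cells with knockdown of the long noncoding RNA *Paupar*, 9 genes that carry a cell from G1 into S phase were followed: the D-type cyclins *Ccnd1*, *Ccnd2* and *Ccnd3*, the E-type cyclins *Ccne1* and *Ccne2*, the kinases *Cdk2*, *Cdk4* and *Cdk6*, and the phosphatase gene *Cdc25a*. They were selected by name, with no measured value in the rule, but with earlier results of these data known. They are 9 of the 19938 genes that had a transcript cluster (an array probe set) with a single gene symbol. Each of the 9 had 1 such cluster. N2A (neuro 2A) is a mouse neuroblastoma line. Both groups were grown with 10% fetal bovine serum and received 1.5 µg of an shRNA expression construct by transient transfection: a non-targeting vector in the control group (3 arrays) and a *Paupar* knockdown construct in the knockdown group (3 arrays), with total RNA taken 2.5 days later. According to the methods the hairpins are driven by the U6 promoter and the samples of a group are biological replicates. The share of cells that took up the construct is not given in the labels, and each array averages over all cells of a culture. How far the *Paupar* transcript itself was lowered was not analysed here, since no annotated cluster carries its name.

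Passage through G1 is paced by cyclin-dependent kinases (CDKs), which are active only when bound to a cyclin. Growth signals raise the D-type cyclins, which activate CDK4 and CDK6. These kinases phosphorylate the RB protein and so release E2F transcription factors. The E2F factors released in this way switch on the E-type cyclins and *Cdc25a*, among many genes of S phase. Cyclin E with CDK2 drives the start of DNA replication once the CDC25A phosphatase has removed inhibitory phosphates from CDK2. Cyclin D1 is known to be abundant in many neuroblastomas.

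The deposited values are log2 expression values, and the array medians over named genes lay between 7.85 and 7.92. Of 14 measured markers of sympathetic neuroblasts, 12 lay above the array median on every array, while the neurofilament genes *Nefl* and *Nefm* lay below it. The mean of these markers ranged from 10.45 to 10.49 on control arrays and from 10.21 to 10.31 on knockdown arrays, and 3 of them (*Dbh*, *Th* and *Chgb*) fell. Markers of glia lay below the median on every array for 7 of 8 genes, those of fibroblasts and muscle for 7 of 10 and those of blood and endothelium for 6 of 8, and none of these markers passed the test. Control replicate 1 stood apart from the other control arrays in genes of the cell cycle: the mean of 25 S phase genes lay there at -0.36 relative to the control mean on the log2 scale, against 0.21 and 0.15 on control replicates 2 and 3.

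The comparison asked which of these genes changed when *Paupar* was lowered. *Ccne2*, *Cdc25a*, *Cdk2* and *Ccnd3* rose, by 1.75-fold, 1.52-fold, 1.45-fold and 1.38-fold, and none of the 9 genes fell. *Ccne1* lay 1.39-fold higher without passing the test. For *Ccnd1*, *Ccnd2*, *Cdk4* and *Cdk6* the groups overlapped. The genes that rose thus encode a cyclin E and its partner CDK2, the phosphatase that activates this pair, and 1 of the 3 D-type cyclins. The variance filter left 7 of the 9 genes, of which 4 rose (limma, Benjamini-Hochberg adjusted p under 0.05 over 9969 genes), where 2.39% of all genes tested rose, 5.16% fell and 7.54% changed in either direction. As the 9 genes were chosen with earlier results of these data known, these shares are a description only. The 4 genes are among the 238 genes that rose, of which 10 had a larger rise than *Ccne2*, 68 a larger rise than *Cdc25a*, 116 than *Cdk2* and 179 than *Ccnd3*. The median difference of the 9 genes was 0.46 on the log2 scale, and that of all named genes 0.03. Knockdown values lay above all control values for 5 of the 9 genes (*Ccnd3*, *Ccne1*, *Ccne2*, *Cdk2* and *Cdc25a*), and all 5 had passed the variance filter. Knockdown values lay above all control values for 15.1% of the genes tested and 12.8% of all named genes, and groups did not overlap in either direction for 31.1% and 23.5%. In bulk RNA, a different share of cells of one kind and a different amount of RNA per cell cannot be told apart.

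**Figure D1:**
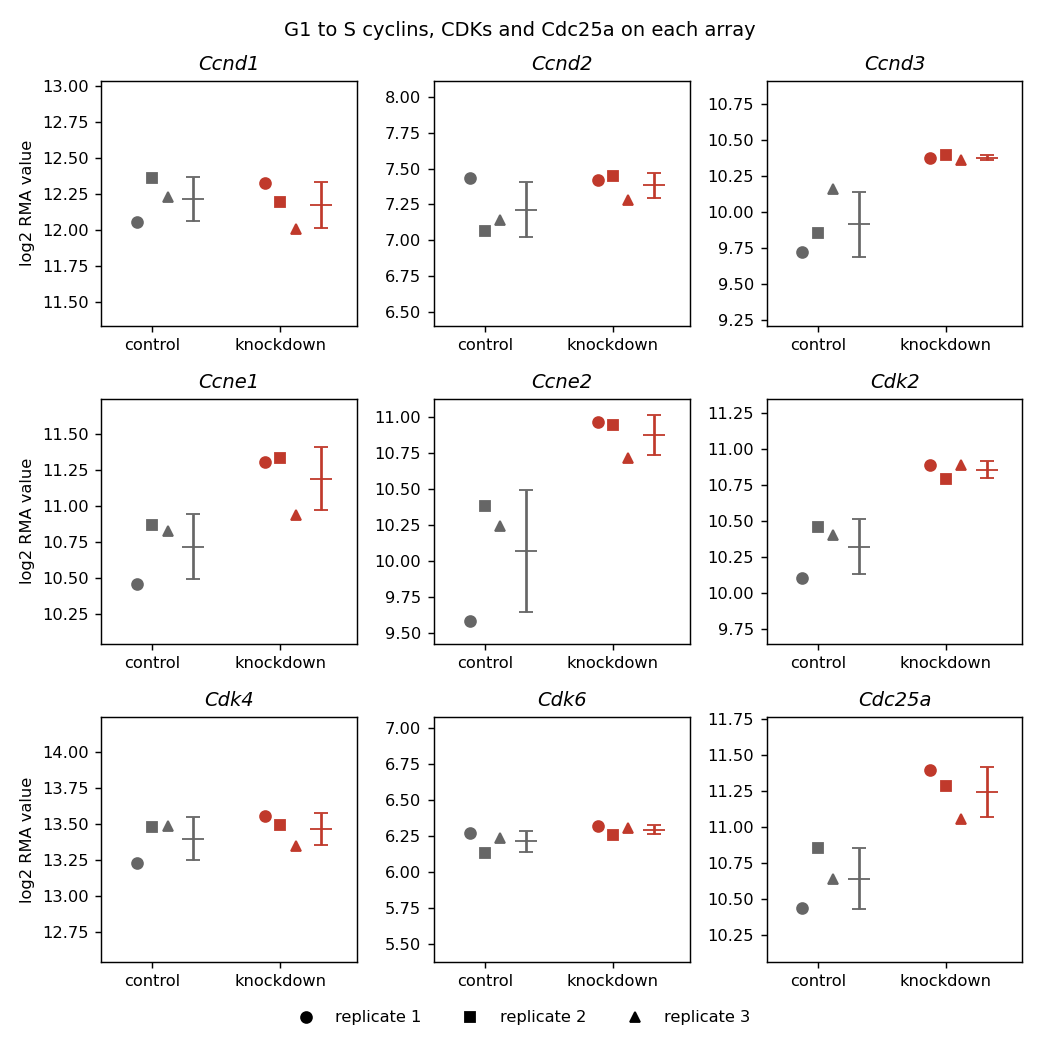
Log2 RMA value (y axis, the same span in each panel) of the 9 genes on each control (grey) and *Paupar* knockdown (red) array; the marker shape gives the replicate and the bar the group mean with its SD, n = 3. The 3 knockdown values stand above all control values for *Ccnd3*, *Ccne1*, *Ccne2*, *Cdk2* and *Cdc25a*, and the groups overlap for the other genes.

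The calls rested on the full set of arrays. All 4 genes kept a difference above 0 whichever array was left out, but *Ccne2* passed in 3 of these 6 fits, *Cdk2* and *Cdc25a* in 2 and *Ccnd3* in 0. When control replicate 3 was left out no gene of the 9 passed, and the same held for knockdown replicate 1 and for knockdown replicate 2 (limma, with 5, 4 and 4 of them at an unadjusted p under 0.05). Only *Ccne2* passed without control replicate 1. Without control replicate 2 or knockdown replicate 3, 4 genes passed, with *Ccne1* in place of *Ccnd3*. With no variance filter *Cdk2* and *Cdc25a* passed, and with transcript clusters, named or not, in place of genes in the limma fit none did (5 at an unadjusted p under 0.05). Of all 19938 genes, 612 passed with no variance filter. Of the 17778 clusters tested, 0 passed and 3015 had an unadjusted limma p under 0.05.

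Of the D-type cyclins, *Ccnd1* and *Ccnd2* did not pass. *Ccnd1* (transcript cluster 10569646), the cyclin D1 gene, stood at 12.06, 12.36 and 12.23 on control replicates 1 to 3 and at 12.32, 12.19 and 12.01 on knockdown replicates 1 to 3. The groups overlapped fully, and the lowest value of all was a knockdown array. The difference was -0.04 (SE 0.13), with a 95% interval from -0.32 to 0.24 (limma adjusted p = 0.859), so that a level of 0.801 to 1.18 times control is covered. *Ccnd2* (transcript cluster 10548105), the cyclin D2 gene, stood at 7.43, 7.07 and 7.14 on control arrays and at 7.42, 7.45 and 7.28 on knockdown arrays. Here control replicate 1 was the highest control and lay among the knockdown arrays, whereas it was the lowest control for each of the 4 genes that rose. The difference was 0.17 with an interval from -0.11 to 0.44 (limma adjusted p = 0.415), measured at a signal below the array median on all 6 arrays.

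*Ccnd3* (transcript cluster 10445688), which encodes cyclin D3, was the D-type cyclin that passed. It stood at 9.72, 9.85 and 10.16 on control arrays and at 10.37, 10.40 and 10.36 on knockdown arrays. The knockdown arrays lay within 0.03 of each other, while the controls spread over 0.44, and control replicate 3 came within 0.20 of the lowest knockdown value. The mean went from 9.91 ± 0.22 to 10.38 ± 0.02 (SD, n = 3 per group), a log2 difference of 0.46 (SE 0.13, limma adjusted p = 0.0454). This call was close to the threshold: the adjusted p was 0.0601 without the variance filter and between 0.0533 and 0.161 with 1 array left out. The log2 value of *Ccnd1* minus that of *Ccnd3* differed between knockdown and control by -0.51, with every knockdown array below every control array (exact permutation test, two-sided, p = 0.1, the smallest that 3 against 3 arrays can give, and 0.25 adjusted over 5 pairs). The same difference was -0.30 for *Ccnd2* minus *Ccnd3* (exact permutation p = 0.3) and -0.21 for *Ccnd1* minus *Ccnd2* (exact permutation p = 0.4), and in both the groups overlapped and the low signal of *Ccnd2* enters.

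The partner kinases of the D-type cyclins did not pass the variance filter, and their values come from a limma fit to all 19938 genes. *Cdk4* (transcript cluster 10366814) stood at 13.23, 13.48 and 13.49 on control arrays and at 13.56, 13.50 and 13.35 on knockdown arrays. Knockdown replicate 3 lay inside the control range. The difference was 0.07, with an interval from -0.16 to 0.29, that is 0.895 to 1.22 times control. *Cdk6* (transcript cluster 10519324) stood at 6.27, 6.13 and 6.23 on control arrays and at 6.32, 6.26 and 6.31 on knockdown arrays, with 1 knockdown value inside the control range. The difference of *Cdk6* was 0.08, with an interval from -0.10 to 0.26, that is 0.935 to 1.20 times control. The signal of *Cdk6*, like that of *Ccnd2*, lay below the array median on all 6 arrays. *Cdk4* minus *Cdk6* differed between the groups by -0.02 (exact permutation p = 0.8).

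Both E-type cyclins lay higher on every knockdown array than on any control array. *Ccne2* (transcript cluster 10503264), which encodes cyclin E2, stood at 9.58, 10.38 and 10.24 on control arrays and at 10.97, 10.95 and 10.71 on knockdown arrays. Control replicate 1 was the lowest by far, and the gap between the highest control and the lowest knockdown array was 0.33. The mean went from 10.07 ± 0.43 to 10.87 ± 0.14 (SD, n = 3 per group), a log2 difference of 0.81 (SE 0.18, interval 0.43 to 1.18, limma adjusted p = 0.0163). Without control replicate 1 the difference was 0.56 (limma adjusted p = 0.0479), and without control replicate 2 it was 0.96 (limma adjusted p = 0.00496). The call was lost without control replicate 3 (adjusted p = 0.0735), knockdown replicate 1 (0.0511) or knockdown replicate 2 (0.0670), and narrowly with no variance filter (0.0502).

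*Ccne1* (transcript cluster 10562563), the cyclin E1 gene, stood at 10.45, 10.86 and 10.83 on control arrays and at 11.30, 11.33 and 10.94 on knockdown arrays. The groups did not overlap, yet knockdown replicate 3 lay only 0.07 above the highest control, far below the other 2 knockdown arrays. The mean went from 10.71 ± 0.23 to 11.19 ± 0.22 (SD, n = 3 per group), a log2 difference of 0.47 (SE 0.15, interval 0.16 to 0.79, limma adjusted p = 0.0621). It passed without knockdown replicate 3 (adjusted p = 0.0243) or control replicate 2 (0.0451). *Ccne2* minus *Ccne1* was higher by 0.33 in the knockdown, and every knockdown array lay above every control array (exact permutation p = 0.1, the smallest possible here, and 0.25 adjusted over 5 pairs).

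**Figure D2:**
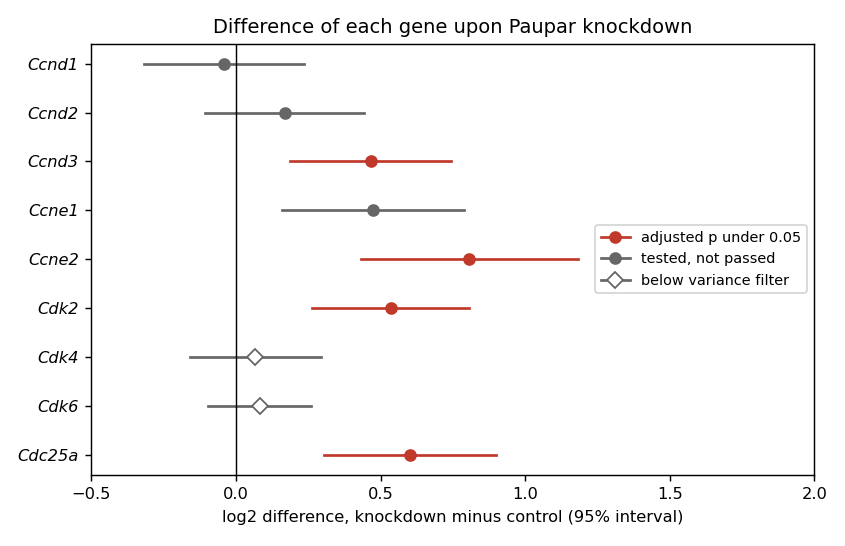
Log2 difference, knockdown minus control (x axis), of each of the 9 genes with its 95% interval from limma; red marks an adjusted p under 0.05, filled grey a gene tested that did not pass, and open diamonds the genes below the variance filter. The intervals of *Ccnd3*, *Ccne1*, *Ccne2*, *Cdk2* and *Cdc25a* lie above 0, and those of *Ccnd1*, *Ccnd2*, *Cdk4* and *Cdk6* include it.

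*Cdk2* and *Cdc25a* encode the catalytic partner of the E-type cyclins and the phosphatase that activates it. Both rose, and the stretch before the start of each gene is shown because both hold an E2F-type core, which the other 4 genes with a promoter entry did not. The sequences are the 250 bases before the annotated start in RefSeq, build GRCm38.p6, printed 5′ to 3′ on the strand of the gene, and capitals mark E2F-type cores. *Cdc25a* lies at chr9:109875329-109875578 on the plus strand, *Cdk2* at chr10:128705052-128705301 on the minus strand and *Cdk4*, given as a gene with no core that was not tested, at chr10:127063285-127063534 on the plus strand.
Cdc25a: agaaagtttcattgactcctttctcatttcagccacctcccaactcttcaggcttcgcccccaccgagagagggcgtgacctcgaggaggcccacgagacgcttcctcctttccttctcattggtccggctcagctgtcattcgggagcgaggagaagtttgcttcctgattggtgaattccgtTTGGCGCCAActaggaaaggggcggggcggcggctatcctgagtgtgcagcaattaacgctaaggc
Cdk2: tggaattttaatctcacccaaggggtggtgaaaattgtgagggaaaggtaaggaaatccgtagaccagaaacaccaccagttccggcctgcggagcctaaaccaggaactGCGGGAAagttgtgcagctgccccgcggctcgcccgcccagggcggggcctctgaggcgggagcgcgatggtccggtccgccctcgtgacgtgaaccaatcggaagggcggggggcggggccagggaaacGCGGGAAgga
Cdk4: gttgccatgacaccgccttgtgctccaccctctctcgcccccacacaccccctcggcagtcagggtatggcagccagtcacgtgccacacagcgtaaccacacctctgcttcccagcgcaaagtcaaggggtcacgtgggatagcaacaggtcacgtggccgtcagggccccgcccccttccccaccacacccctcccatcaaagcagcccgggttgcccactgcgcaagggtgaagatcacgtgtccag

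In *Cdc25a* a core on each strand overlaps the other, between 66 and 57 bases before the start. In *Cdk2* the cores lie 140 to 134 and 10 to 4 bases before the start. The cores searched were TTCCCGC or TTCGCGC or TTGGCGC or TTGCCGC on both strands, and 7.89% of the 32851 promoter entries of the same length hold at least 1. *Ccnd3*, which also rose, holds none in this window in either entry. *Ccne1*, which lay higher without passing, and *Cdk6* hold none either. No entry of these genes holds TTTGAA, the letters of the cell cycle homology region, which 16.0% of all entries hold, and 6 of the 7 entries hold the GC box GGGCGG on either strand, against 32.7% of all. A match describes letters in a short window, and the lack of one says only that these letters are not there. *Ccnd1*, *Ccnd2* and *Ccne2* had no entry.

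*Cdk2* (transcript cluster 10373530) stood at 10.10, 10.45 and 10.40 on control arrays and at 10.89, 10.79 and 10.89 on knockdown arrays. The knockdown arrays stayed within 0.10 of each other, and the gap to the highest control was 0.33. The mean went from 10.32 ± 0.19 to 10.85 ± 0.06 (SD, n = 3 per group), a log2 difference of 0.53 (SE 0.13, interval 0.26 to 0.81, limma adjusted p = 0.0236). It passed without control replicate 2 or knockdown replicate 3, and its adjusted p lay between 0.0623 and 0.0919 without any other array.

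*Cdc25a* (transcript cluster 10589420) stood at 10.43, 10.85 and 10.63 on control arrays and at 11.39, 11.28 and 11.05 on knockdown arrays. As for both E-type cyclins, knockdown replicate 3 was the lowest of its group and control replicate 1 the lowest control. The mean went from 10.64 ± 0.21 to 11.24 ± 0.17 (SD, n = 3 per group), a log2 difference of 0.60 (SE 0.14, interval 0.30 to 0.90, limma adjusted p = 0.0209). It too passed without control replicate 2 (adjusted p = 0.00968) or knockdown replicate 3 (0.0137), and missed the threshold without any other array, at 0.0747 to 0.102.

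**Figure D3:**
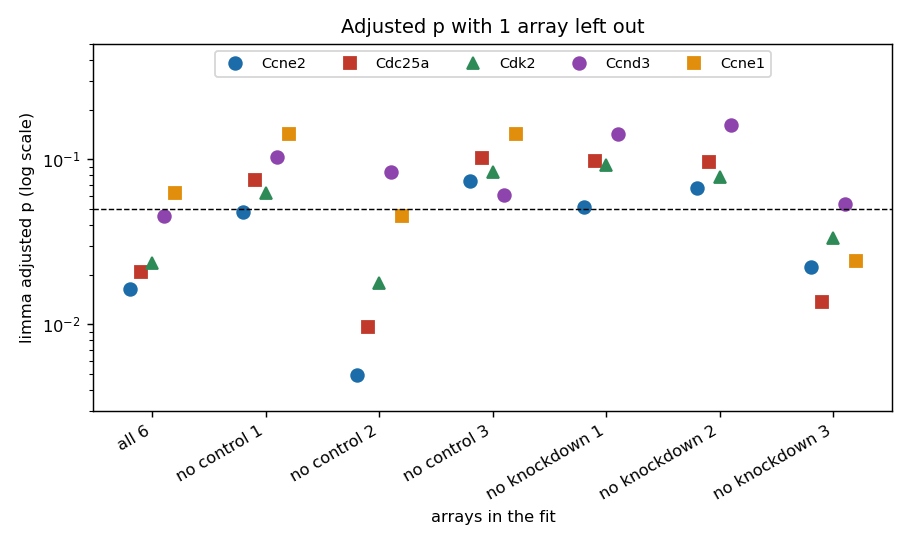
Limma adjusted p (y axis, log scale) of the 5 genes whose groups did not overlap, with all 6 arrays and with each array left out in turn (x axis); the dashed line stands at 0.05. *Ccne2* lies between 0.00496 and 0.0735 with 1 array left out, *Ccnd3* lies above the line in all 6 such fits, and *Ccne1* has no point without knockdown replicate 1 or 2, where it did not pass the variance filter.

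The array by array pattern of these genes was set beside that of S phase genes. Relative to the control mean, the S phase list lay at -0.36, 0.21 and 0.15 on control arrays and at 0.66, 0.62 and 0.40 on knockdown arrays. *Ccne2* lay at -0.49, 0.31 and 0.17, and at 0.90, 0.88 and 0.64. In both, control replicate 1 was lowest and knockdown replicate 3 the lowest of its group. In *Ccnd3* control replicate 3 was the highest control, with the control arrays at -0.19, -0.06 and 0.25, and *Cdk2* was as high on knockdown replicate 3 as on knockdown replicate 1 (0.57 on both). The list of 22 genes of G2 and M phase lay between 0.31 and 0.35 on the knockdown arrays and at -0.18 on control replicate 1. The part that a change in cell cycle phase had in the values of the 9 genes was not tested.

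**Figure D4:**
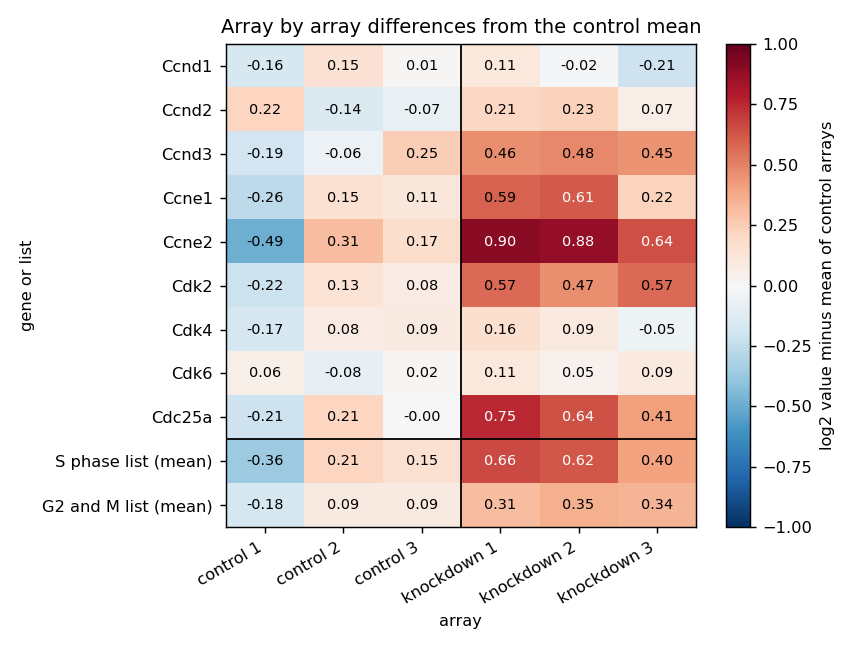
Log2 value minus the mean of the 3 control arrays (colour and printed number) for the 9 genes and for the mean of 25 S phase and 22 G2 and M phase genes (rows) on each array (columns). *Ccne2* spans the widest range, from -0.49 on control replicate 1 to 0.90 on knockdown replicate 1, and the S phase list runs from -0.36 to 0.66.

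For each gene that rose, the 3 named genes with the most similar pattern were taken by the mean absolute difference of control-centred values over the 6 arrays. Since the knockdown arrays enter this measure, a like difference between the groups is part of the choice and no separate result. For *Ccne2* these were the replicative helicase subunits *Mcm4* (0.05) and *Mcm3* (0.06) and the repair gene *Brca1* (0.07). For *Cdc25a* they were the chromatin assembly subunit *Chaf1a* (0.04), the separase gene *Espl1* (0.05) and *Atad5* (0.05), a factor that unloads the replication clamp. For *Cdk2* they were *Lin54* (0.02), which encodes a DNA-binding subunit of the DREAM complex, *Mtfr2* (0.02) and *Ccdc34* (0.03). For *Ccnd3* they were the tubulin gene *Tubb6* (0.03), *Gpd1l* (0.04) and *Msl3l2* (0.04). These distances are a description over 6 arrays.

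Around these 9 genes, the lists of their targets, inhibitors and regulators were counted. Over all genes tested, 2.39% rose and 5.16% fell, and the lists were chosen with earlier results of these data known. With control replicate 1, 2 or 3 left out, 48, 268 and 25 of the 9969 genes tested rose and 194, 518 and 87 fell. With knockdown replicate 1, 2 or 3 left out, 40, 25 and 334 rose and 161, 113 and 905 fell. Of 13 measured genes of the RB and E2F family, 11 passed the variance filter, 6 rose and none fell, and 12 differences lay above 0 (median 0.32 on the log2 scale). The number that passed was 3 when control replicate 1 was left out and 2 when control replicate 3, knockdown replicate 1 or knockdown replicate 2 was. *E2f2*, *E2f7*, *Tfdp2* and *Tfdp1* rose 1.86-fold, 1.68-fold, 1.51-fold and 1.44-fold. The family was counted as a whole, and the activity of E2F factors was not tested. *E2f1*, an activator of *Ccne1* and *Cdc25a*, lay 1.25-fold higher (limma adjusted p = 0.118), and *Rb1*, the substrate of CDK4 and CDK6, had a log2 difference of -0.07 with overlapping groups (limma adjusted p = 0.798).

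Of 6 measured CDK inhibitors, *Cdkn2c*, which blocks CDK4 and CDK6, rose 1.45-fold. Of the other 5, 3 lay below the variance filter and 2 were tested without passing, and the median of the list was 0.10. *Cdkn2c* stood at 8.39, 8.43 and 8.46 on control arrays and at 8.93, 8.90 and 9.08 on knockdown arrays. It did not pass when control replicate 3, knockdown replicate 1 or knockdown replicate 2 was left out. *Cdkn1b*, which encodes the CDK2 inhibitor p27, stood at 11.39, 11.45 and 11.47 and at 11.09, 11.17 and 11.23, a log2 difference of -0.27 (limma adjusted p = 0.147). Its knockdown values lay below all controls, as did those of 16% of the genes tested and 10.8% of all named genes. Of 4 genes that activate or fold CDKs, 3 were tested and none passed (0 at an unadjusted limma p under 0.05), with differences of -0.22 for *Cdk7*, the kinase that activates CDKs, and -0.17 for the chaperone gene *Cdc37*. Of 19 measured genes that turn over cyclins, CDC25A or p27, 9 were tested and none passed either (5 at an unadjusted limma p under 0.05), with a median of 0.01. Over all 9969 genes tested, 2622 had an unadjusted limma p under 0.05. Of these, *Cks1b* and *Skp2*, which together direct p27 to degradation, lay 1.30-fold and 1.28-fold higher (limma adjusted p = 0.0948 and 0.0875).

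Checkpoint and other kinases upstream of CDC25A and CDK2 also rose in part. Of 9 measured, 7 were tested, *Chek1*, *Chek2* and *Plk1* rose 1.55-fold, 1.39-fold and 1.34-fold and none fell. No gene of this list passed when control replicate 3, knockdown replicate 1 or knockdown replicate 2 was left out, and 1 did when control replicate 1 or 2 was. *Chek1* marks CDC25A for destruction when replication stalls, and it stood at 9.43, 9.90 and 9.83 on control arrays and at 10.38, 10.35 and 10.33 on knockdown arrays. *Wee1*, which adds the phosphates that CDC25 proteins remove, lay 1.32-fold higher (limma adjusted p = 0.0611). *Plk1* is counted again below among the genes of G2 and M phase.

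Genes upstream of the D-type cyclins came next. Of 17 measured, 8 were tested, *Egfr*, the receptor of epidermal growth factor, fell 1.35-fold (limma adjusted p = 0.0437), none rose, and the median difference was 0.02. Leaving out any 1 array other than knockdown replicate 3, or centring the arrays on the median, left no gene of this list called. *Myc* and *Mycn* lay below the variance filter, with differences of 0.04 and 0.0014. Among 28 other cyclins, CDKs and CDC25 phosphatases, of which 17 were tested, *Ccnf* and *Ccna2* rose 1.55-fold and 1.37-fold and *Ccng1* fell 1.75-fold, with a median difference of 0.05. Of these 28, none passed when control replicate 3 was left out, 1 did when control replicate 1, knockdown replicate 1 or knockdown replicate 2 was, and 6 did when knockdown replicate 3 was. *Ccna2*, the S phase partner of CDK2 after cyclin E, stood at 12.61, 12.69 and 12.77 on control arrays and at 13.10, 13.21 and 13.14 on knockdown arrays. The CDC25 relatives *Cdc25b* and *Cdc25c* had differences of 0.33 (limma adjusted p = 0.0939) and 0.04, the latter below the variance filter.

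Of 25 measured S phase genes, 23 were tested, 14 rose, all 25 differences lay above 0 and the median was 0.56. The number that passed was 5 with no variance filter, 4 when control replicate 1 or knockdown replicate 1 was left out and 2 when control replicate 3 or knockdown replicate 2 was. *Rrm2*, a subunit of ribonucleotide reductase, rose 2.08-fold, the origin licensing factor *Cdc6* 1.83-fold, *Mcm3* 1.74-fold and *Rpa2*, which coats single-stranded DNA, 1.67-fold. Of 22 genes of G2 and M phase, 18 were tested, 6 rose, none fell and the median was 0.37, with the spindle motor *Kif11* and the checkpoint gene *Bub1b* at 1.41-fold and 1.37-fold. None of the 22 passed when control replicate 1 or 3 or knockdown replicate 1 or 2 was left out. Genes on several lists, such as *Plk1* and *Ccna2*, were counted once in the total. Over all 139 measured genes of these lists, 95 were tested, 30 rose and 2 fell. Of all genes tested, 2.39% rose and 5.16% fell. The number of list genes that rose dropped to 9 when control replicate 1 was left out and to 4 when control replicate 3 was. It was 6 in the fit that left out knockdown replicate 1 and 4 in the fit that left out knockdown replicate 2. Leaving out control replicate 2 gave 33, and leaving out knockdown replicate 3 gave 31.

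**Figure D5:**
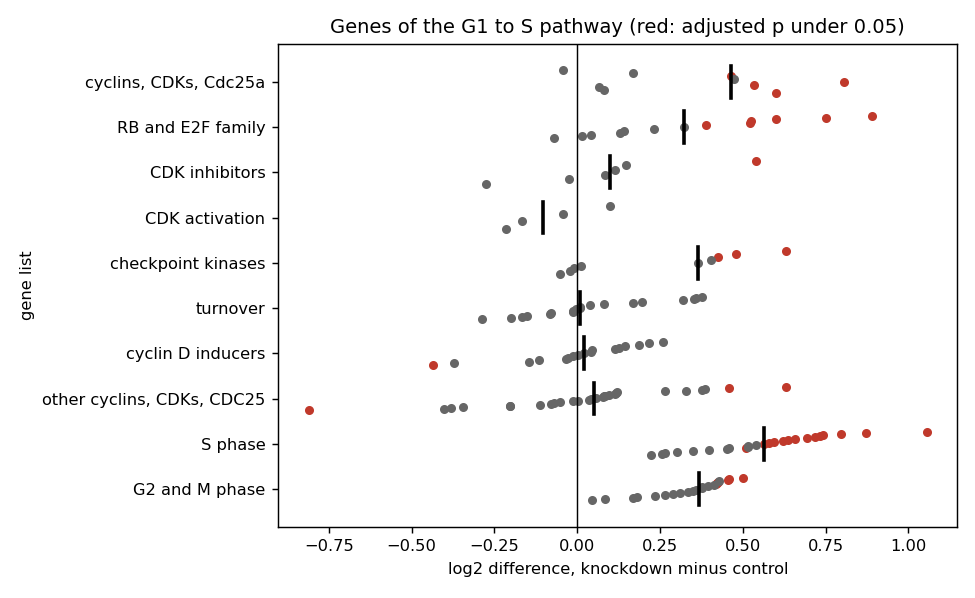
Log2 difference, knockdown minus control (x axis), of each measured gene of the 9 genes and of the lists around them (y axis); red points passed at an adjusted p under 0.05 and the black bar is the median of the list. The medians stand at 0.46 for the 9 genes, 0.32 for the RB and E2F family, 0.56 for S phase and 0.01 for turnover.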

How the data were processed

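RNA of 3 control and 3 *Paupar* knockdown samples (200 ng each) was hybridised to Affymetrix Mouse Gene 1.0 ST arrays, 1 sample per array. Per the methods, the authors background corrected, quantile normalised and summarised the arrays by RMA and deposited log2 values for 35556 transcript clusters; for tool versions and genome build the sources used here give nothing. In the platform annotation, 21789 clusters carried 1 symbol (21698 matched the RefSeq gene table of GRCm38.p6 by Entrez identifier), 1621 had several and 12146 had none. The cluster with the highest mean was kept for each of 19938 genes. The study's methods remove genes of little variation without naming the measure. The interquartile range was chosen here and the lower 50% removed, and knockdown was compared with control over 9969 genes with limma (version 3.58.1 under R 4.3.3, moderated by eBayes). P-values were adjusted by Benjamini-Hochberg and called under 0.05. Values of genes below the filter come from a second fit without it. Errors and 95% intervals are the moderated ones. Pairs within a family were compared by an exact two-sided permutation test over arrays. The number of arrays limits the precision.

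The members and lists were chosen with earlier results of these data known. Named genes are the 9 members, up to 4 called genes of each list by size (or 2 where none was called), further list genes chosen after their values were seen (*E2f1*, *Rb1*, *Cdkn1b*, *Wee1*, *Myc*, *Mycn*, *Cdc25b*, *Cdc25c*), the marker genes named, and the 3 genes of most similar pattern for each called member.  Genes whose clusters carry several symbols, or that are in none, are not analysed here. Alternatives were other filters, cluster choices and normalizations, array weights, a trended robust eBayes, a replicate block and leaving out each array. The fit was tested on simulated data, the outcome of which is not reported here.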

Additional observations from a re-analysis of the deposited data

How the results depend on the processing

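For same-numbered samples of both groups the labels give only a common number. Their deviations from the group means correlated at -0.340, 0.0956 and 0.0797 over the genes tested. Samples of unlike number correlated at -0.372 (control replicate 2 with knockdown replicate 3) to 0.443 (control replicate 2 with knockdown replicate 1). A batch shared under another pairing was not tested. With the replicate number as a block (replicate block), 680 genes passed instead of 752 and 3 of the 9 genes instead of 4, with *Ccnd3* lost at the same difference of 0.46 (limma adjusted p = 0.0502), and 1 pathway gene fell instead of 2. Under the block 2 genes of G2 and M phase passed instead of 6, and 0 genes upstream of the D-type cyclins, so that the call of *Egfr* was lost. With no variance filter, 2 of the 9 and 19 pathway genes rose instead of 30; *Ccnd3* (0.46) and *Ccne2* (0.81) missed the threshold. With all transcript clusters, named or not, in place of genes and the same variance filter, 0 passed in limma (3015 of 17778 clusters at an unadjusted p under 0.05), so 0 of the 9 and 0 pathway genes in either direction; the differences of *Ccnd3* (0.46), *Ccne2* (0.81), *Cdk2* (0.53) and *Cdc25a* (0.60) then had adjusted p between 0.179 and 0.208. With array weights 5561 of all 9969 genes tested passed, of which 2896 rose and 2665 fell, so that most genes passed in this fit. There 60 pathway genes rose and 12 fell, *Ccnd2* (0.27) and *Ccne1* (0.48) passed, and *Ccnd1* changed sign to 0.0018. *Ccne1* (0.47) also passed with a filter by sample variance, where 995 genes and 5 of the 9 did. It passed too with a trended robust eBayes, where 1008 genes and 5 of the 9 did. Pathway genes that fell numbered 4 with dim genes removed, 4 with the trended robust eBayes and 1 with arrays centred on the median. Centring moved the median of all genes from 0.03 to 0.05, and reversed no direction among the 9 genes.

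With 1 array left out, 112 to 1239 genes passed, 0 to 4 of the 9 did, and 4 to 33 pathway genes rose and 0 to 5 fell. The differences ranged from -0.12 to 0.042 for *Ccnd1*, 0.10 to 0.28 for *Ccnd2*, 0.37 to 0.59 for *Ccnd3*, 0.34 to 0.60 for *Ccne1*, 0.56 to 0.96 for *Ccne2*, 0.43 to 0.60 for *Cdk2*, -0.019 to 0.13 for *Cdk4*, 0.04 to 0.11 for *Cdk6* and 0.50 to 0.71 for *Cdc25a*. That of *Cdk4* minus *Cdk6* ranged from -0.13 to 0.064. The other differences within a family kept their sign. *Ccnd2* and *Cdk6* lay below the array median on every array, which limits what a small difference in them can show.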
